A study of Homo sapiens with 9 samples.

Results

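TRIM28 (also called KAP1 or TIF1-beta) was silenced in 786-O cells, and the 13562 expressed genes, its own among them, were compared between 3 TRIM28 knockdown libraries and 3 control libraries, 6 of the 9 libraries of the series. 786-O is an established clear cell renal carcinoma line of human origin, without functional VHL. The control cells carry the labels wild type and negative control siRNA, and the knockdown cells the labels TRIM28 knockdown and TRIM28 siRNA. Another label names the reagent an shRNA in both groups, and the series text calls the controls parental, so the kind of reagent is uncertain. Reagent sequences, the number of reagents per target and the time after silencing were not stated in the labels. The other 3 libraries, labelled PARP1 knockdown and PARP1 siRNA, share the line and the batch label and served as a further reference. Nothing in the labels ties replicates to separate cultures, so p-values reflect only how far these libraries differ from each other, and that spread may be technical.

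TRIM28 is a nuclear corepressor. KRAB zinc finger proteins bring it to DNA, and it assembles the histone methyltransferase SETDB1, HP1 proteins and the NuRD deacetylase complex into heterochromatin marked by methylation of lysine 9 on histone H3. It also acts as a SUMO E3 ligase, and in many cells it holds endogenous retroviruses, imprinted loci and germline genes silent. Its loss is known in several systems to expose double-stranded RNA or DNA to the sensors that switch on interferon genes. These functions set the gene lists used here. The lists were drawn up with earlier results of these data known, so their counts describe the data and are no independent evidence.

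Levels are CPM, counts scaled to library size after TMM correction, which corrects totals for differences in make-up between libraries. FPKM, used where genes are compared, also divides by summed exon length. Rising and falling were called at a Benjamini-Hochberg adjusted p below 0.05 in the quasi-likelihood test of edgeR. Fold changes are log2 values of TRIM28 knockdown over control, followed where given by the standard error (n = 3 libraries in each group). "Length-adjusted" values come from the same test after the trend of level on summed exon length was removed within each library. Genes described as rising or falling kept that call in each of the 6 fits that left out 1 library, unless the libraries that ended it are named.

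Library totals of the 6 libraries ran from 12840619 to 20224374 counts. In single libraries, a gene's log2 level, taken relative to its own mean, changed per doubling of exon length by 0.203, 0.175 and 0.0725 in control replicates 1 to 3, and by -0.01, -0.02 and -0.00085 in TRIM28 knockdown. Control replicate 3 therefore lay nearest the knockdown libraries, and length moved with the comparison. Of 10 markers of the line, all were tested, with PAX8 at 53.8 FPKM, VIM at 1131 FPKM and PAX2 at only 0.9 FPKM in control. In the main fit 7 were called, KRT18 and KRT8 higher in knockdown and CDH6, EPAS1, VCAM1, HAVCR1 and CA12 lower. HIF1A and VHL, whose functional products the line is known to lack, were detected as RNA at 16.4 and 8.69 FPKM in control. Markers of other cells summed to at most 0.29 FPKM for leukocytes (3 of 6 genes at 0 in all 6 libraries), 0.53 for endothelium (1 of 6 at 0), 3.54 for fibroblasts and pericytes (0 of 7 at 0) and 0.02 for other nephron segments (5 of 6 at 0). Most of these markers were too low to be tested. Those tested were 0 of 6 for leukocytes, 2 of 6 for endothelium, 3 of 7 for fibroblasts and pericytes and 0 of 6 for other nephron segments. None of the tested ones was called.

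TRIM28 itself (ENSG00000130726, chromosome 19, 58544064 to 58550722, plus strand, GRCh38) held 316, 342 and 381 CPM in control and 44.0, 54.7 and 58.0 CPM in knockdown. The groups were far apart, and 15.1% of the control mean remained, a length-adjusted fold change of -2.69. Its relatives TRIM24, TRIM33 and TRIM66, the other members of the TIF1 family, were tested and did not pass.

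Across the genome 3768 genes passed, 27.8% of those tested. Of these, 1394 rose (10.3%) and 2374 fell (17.5%), while at least 2-fold changes were 51 rises (0.376%) and 760 falls (5.6%). With length adjusted, the counts were 1566 rises (11.5%) and 1671 falls (12.3%), of which 59 (0.435%) and 336 (2.48%) were at least 2-fold. Falls thus outnumbered rises as deposited, and with length adjusted still did so among changes of at least 2-fold, while all calls together were near even. Without TMM factors, on library totals, 453 rose and 2856 fell, since that scaling shifts the median of all genes by -0.16. The 3768 calls became 1537 on removal of control replicate 1, 1855 on removal of control replicate 2 and 2116 on removal of TRIM28 knockdown replicate 2. The 811 changes of at least 2-fold became 384, 491 and 1259 on removal of control replicates 1, 2 and 3.

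Both scales shared 827 rises (6.1%) and 1531 falls (11.3%). Length adjustment ended 567 rises and 843 falls and added 739 rises and 140 falls, and no gene switched direction between the 2 sets of calls. In the shortest of 10 equal classes of exon length, 263 of 1357 genes rose and 16 fell, and in the longest 36 rose and 470 fell. After adjustment the same classes had 46 rises and 49 falls, and 187 rises and 201 falls. GC content moved with the comparison too: Spearman's rho across genes, which are not independent replicates, was 0.424 between fold change and GC, and 0.337 after length adjustment. With both trends removed 1474 genes rose (10.9%) and 1418 fell (10.5%), 66 (0.487%) and 200 (1.47%) of them at least 2-fold. A set of 257 rises and 1122 falls kept its call in each of the 6 fits without 1 library, and 152 and 910 of them were called the same way with length adjusted and with both trends removed.

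**Figure D1:**
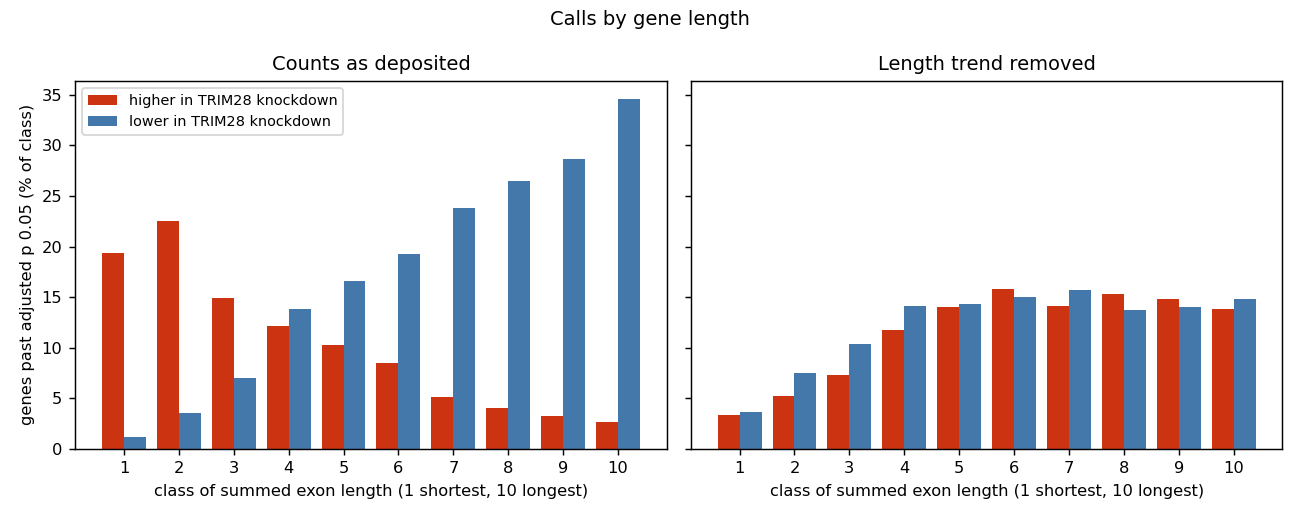
Percent of genes called higher (red) or lower (blue) in TRIM28 knockdown in each of 10 equal classes of summed exon length, from the counts as deposited (left) and with the length trend removed (right). On the left rises crowd the short classes, 263 of 1357 genes in the shortest, and falls the long ones, 470 of 1357 in the longest. On the right the directions lie closer within each class but class 4. With the trend removed, falls lead by most in classes 2 to 4 (101 falls and 71 rises in class 2).

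Ranked by length-adjusted change, the leading rises were U2AF1, OAS1, IFI27, OASL, IFITM1, RPSAP58, AJAP1, ADA, ISG20 and NOTCH2NLB. Of these 10, 5 are interferon-stimulated. OAS1 (chromosome 12, 112905856 to 112933219, plus strand), which makes the 2-5 oligoadenylates that switch on RNase L, held 14.1, 15.9 and 13.8 CPM in control and 30.5, 30.8 and 27.9 CPM in knockdown. Each knockdown library stood well above each control, and the fold change was 1.02 ± 0.15, or 1.38 length-adjusted (adjusted p = 1.5e-06). Its summed exon length of 13021 bases puts it in the longest class, where falls outnumbered rises. ISG20, an interferon-induced exonuclease, rose from 19, 19.7 and 21.7 to 37.6, 35.7 and 32.2 CPM, with no overlap between groups.

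The rises outside the interferon genes included ADA, adenosine deaminase, which went from 8.76, 8.47 and 9.95 to 13.8, 14.8 and 15.4 CPM. The strand setting of the counting is unknown here, and ADA shares its locus with an expressed gene of the opposite strand. The same holds for CBX3, CCND1, CFL1, CHD3, EEF1D, EIF4B, ERAP1, HDAC2, HIF1A, HLA-F, HNRNPU, HSPD1, IFIT1, IFIT3, KIF4A, KRT18, NDUFB8, PEG10, SETDB1, SNRPD2, SQSTM1, TAP1, TNFAIP3, TRIM5, TXNRD1, VCL and ZNF664, so their counts may include reads of a neighbour. CBX5, DNMT1, NDUFB8, NOTCH2NLB, TXNRD1 and ZNF664 also overlap a tested gene of their own strand. AJAP1, a membrane protein of adherens junctions, rose from 10.3, 8.86 and 10.4 to 15.2, 18.2 and 14.3 CPM. NOTCH2NLB, a human-specific NOTCH2 copy, rose by 0.72 ± 0.18, and RPSAP58, a pseudogene of the ribosomal protein RPSA, by 0.75 ± 0.17. Both share sequence with close copies, as does U2AF1 (1.45 ± 0.22), a splicing factor subunit with a near-identical copy elsewhere in this build, so their counts are uncertain.

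After TRIM28 the leading falls were MFAP1, C2orf74, CHRDL1, MCM3AP, EIF4BP7, CIBAR1P1, ITGB1P1, SNW1 and CMTM4. MFAP1, a spliceosome component despite its name, fell from 22.7, 25.9 and 14.8 to 5.92, 7.89 and 6.51 CPM (-1.65 ± 0.21, or -1.84 length-adjusted). SNW1 (SKIP), a core spliceosome factor and transcriptional coregulator, fell from 55.2, 53.8 and 33.0 to 19.6, 16.7 and 18.8 CPM (-1.36 ± 0.18, or -1.53). In both, control replicate 3 was the lowest control and still stood above each knockdown library. Their exon lengths are 2261 and 2432 bases, in a class with 306 rises and 48 falls as deposited and 71 and 101 with length adjusted.

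CHRDL1, which binds and blocks secreted BMP ligands, fell from 59.0, 60.1 and 39.8 to 16.4, 13.7 and 17.1 CPM, and MCM3AP, which acts in messenger RNA export, from 62.3, 67.1 and 59.9 to 16.5, 15.5 and 17.2 CPM. CMTM4, a MARVEL domain protein known to protect PD-L1 from breakdown, fell from 23, 20.0 and 11.5 to 4.48, 5.18 and 5.73 CPM. SNW1 and MCM3AP share their loci with expressed genes of the opposite strand. C2orf74 stood at 2.5, 3.10 and 2.35 CPM in control and 1.43, 0.558 and 0.784 CPM in knockdown. The pseudogenes EIF4BP7, CIBAR1P1 and ITGB1P1 can share reads with their parent genes. EIF4BP7 lost its call without control replicate 1, and CIBAR1P1 without control replicate 1, control replicate 2 or TRIM28 knockdown replicate 3.

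**Figure D2:**
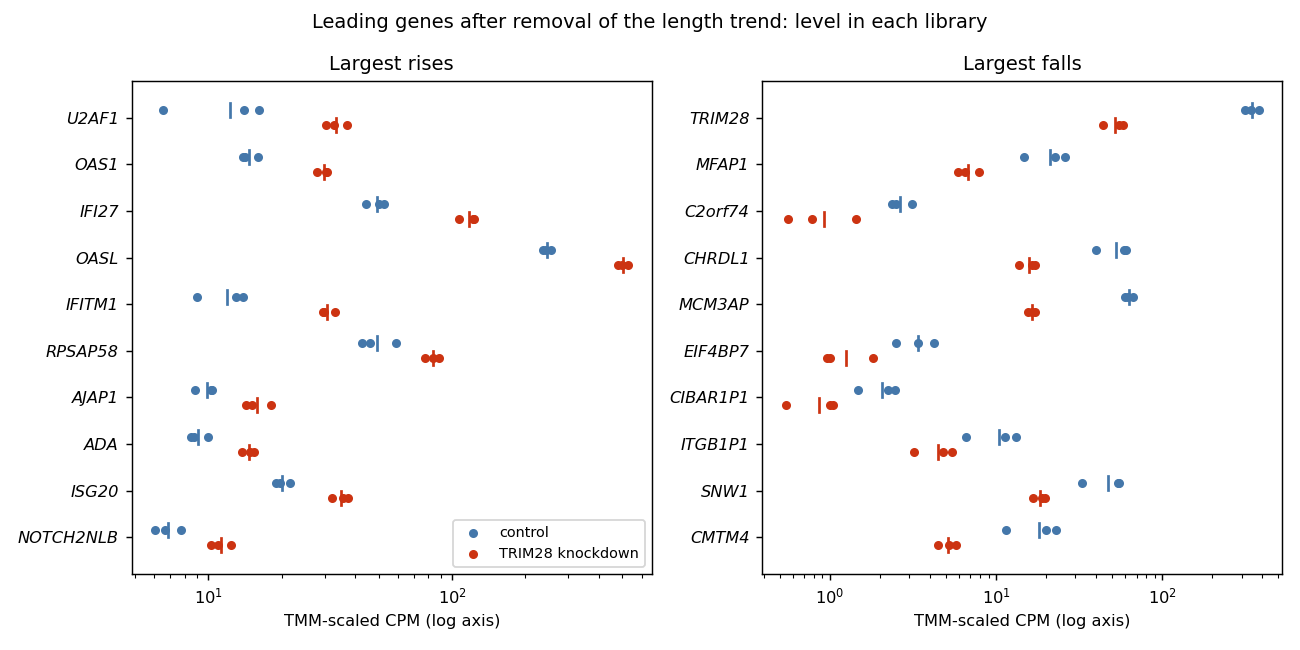
TMM-scaled CPM (log axis) of the 10 largest rises and the 10 largest falls by length-adjusted change, with 1 point per library and a bar at each mean (control blue, TRIM28 knockdown red, n = 3 each). The groups do not overlap in any of these genes, a condition of their choice, and control replicate 3 is the control point nearest the knockdown for MFAP1, SNW1 and CMTM4.

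Each list is given by its counts and its median, to be read against 10.3% higher, 17.5% lower and a median of -0.02 for all tested genes. These shares are not matched for level, which calls followed. Above 62.6 CPM 27.6% of genes rose and 15.6% fell, and from 2.03 to 6.95 CPM 2.4% and 14.5%. By median control level, NF-kB genes (123.9 CPM, 16.7% higher) and glycolysis genes (194.5 CPM, 36.8% higher) compare with the former. ZNF-numbered genes (3.13 CPM, 2.32% higher and 15.7% lower) compare with the latter. Beside a list, a count is also given without the library whose removal left the fewest calls. Of 37 lists with at least 10 tested genes, 30, 30 and 9 had a count that moved by over 1.5 times on removal of control replicate 1, 2 or 3, and 15, 26 and 19 on removal of TRIM28 knockdown replicate 1, 2 or 3. Among these lists, the median turned sign with length adjusted for imprinted, sensor, AMPK, tRNA synthetase, receptor tyrosine kinase and ZNF-numbered genes (to above 0) and for histone, mitochondrial genome and AP-1 genes (to below 0). On library totals it turned below 0 for interferon-stimulated, NF-kB, p53, AP-1, translation factor and sterol genes. There, rises no longer outnumbered falls among NF-kB genes (3 and 4), translation factors (6 and 15), glutathione and NRF2 genes (3 and 6), HLA class I genes (4 and 4) and glycolysis genes (5 and 5).

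The partners of TRIM28 were examined through their RNA. Of 24 tested genes of H3K9 methylation, DNA methylation and the HUSH silencing complex, 9 fell, none rose and 15 did not pass, with a median of -0.38 against -0.02 for all tested genes. The falls were 4 without control replicate 1, and with length adjusted 5, with a median of -0.15 against 0.05 for all. In the lists where no member rose or none fell, 0 to 4 members passed an unadjusted p of 0.05 in that direction by edgeR, 0 to 4 passed by DESeq2 and 0 or 1 by limma. MORC2, an ATPase that works with HUSH, fell from 54.6, 52.0 and 38.6 to 16.1, 18.6 and 20.1 CPM (-1.41 ± 0.17). SETDB1, the methyltransferase that TRIM28 recruits, fell from 35.4, 35.9 and 30.7 to 20.2, 20.2 and 17.7 CPM (-0.81 ± 0.17, or -0.57 length-adjusted). The HP1-beta gene CBX1 fell by 0.71 on the log2 scale and the maintenance DNA methyltransferase DNMT1 by 0.93, and both calls held with length adjusted and with both trends removed. For the other HP1 genes, CBX3 (-0.46) and CBX5 (-0.39), the calls ended with length adjusted (-0.38 and -0.00) and on removal of control replicate 1, control replicate 2, TRIM28 knockdown replicate 2 or TRIM28 knockdown replicate 3, and for CBX5 of TRIM28 knockdown replicate 1 too.

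In the NuRD complex, which slides and deacetylates nucleosomes, 6 of 14 genes fell and 8 did not pass (median -0.36, 4 fell without control replicate 1). With length adjusted 2 rose and 4 fell with a median of -0.16, and with both trends removed the median was -0.03. The helicase genes CHD3 (-1.24 ± 0.14) and CHD4 (-1.35 ± 0.20), the deacetylase gene HDAC2 (-1.0 ± 0.16) and GATAD2B (-0.88) fell on each scale. In CHD4 the controls held 30.2, 33.7 and 20.8 CPM and the knockdown libraries 12.1, 9.80 and 11.3 CPM, without overlap. Of 19 genes of the SUMO pathway 7 fell (4 without control replicate 1), among them UBA2, a subunit of the SUMO-activating enzyme, from 45, 37.8 and 26.9 to 25.1, 17.5 and 17.4 CPM. With length adjusted 5 of the list fell and 1 rose, and its median went from -0.33 to -0.18. With both trends removed 5 fell and 3 rose, with a median of -0.01.

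Genes of the classes that TRIM28 is known to silence were examined next. The table holds 48 MAGE, PAGE and other germline genes, of which 24 had no read in any library and 7 could be tested; none passed (median -0.03). PRAME, the germline antigen with the smallest adjusted p, held 22.5, 23.1 and 24.6 CPM in control and 18.1, 17.4 and 17.0 CPM in knockdown (-0.42 ± 0.18, adjusted p = 0.0821). Of 17 tested imprinted genes 2 rose, 2 fell and 13 did not pass (median -0.06, none rose without control replicate 1), near the 27.8% called among all tested genes. PEG10, a paternally expressed gene derived from a retrotransposon, fell from 98.7, 98.2 and 56.2 to 42.4, 38.8 and 37.1 CPM, and IGF2R, the receptor that clears IGF2, from 413, 426 and 310 to 138, 156 and 152 CPM. The rises, BLCAP (0.40 ± 0.14) and PHLDA2 (0.43 ± 0.14), lost the call on removal of control replicate 1, control replicate 2, TRIM28 knockdown replicate 1 or TRIM28 knockdown replicate 3, BLCAP also without TRIM28 knockdown replicate 2, and PHLDA2 also with length adjusted (0.16).

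Genes with a ZNF number in their symbol, many of which encode the KRAB proteins that recruit TRIM28, were counted by name, without regard to a KRAB domain. Of 345 tested, 54 fell and 8 rose, 17 and 1 without control replicate 1. With length adjusted 31 fell and 14 rose, and the median went from -0.11 to 0.03, near that of all tested genes. On chromosome 19, which holds the large clusters of these genes, 20 of 153 fell and 4 rose, against 34 and 4 of 192 elsewhere. ZNF664 fell from 21.5, 20.2 and 11.2 to 7.47, 7.33 and 5.49 CPM (-1.38 ± 0.24, or -1.19 length-adjusted), and ZNF609 by -1.10 ± 0.17.

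Interferon-stimulated genes held more rises than falls. Of 60 tested 19 rose, 9 fell and 32 did not pass, shares of 31.7% and 15% against 10.3% and 17.5% of all tested genes. The median was 0.16 (all genes -0.02) and 0.31 with length adjusted (all genes 0.05), where 20 rose and 7 fell. With both trends removed 19 rose and 3 fell with a median of 0.28, but the median was -0.00 on library totals, where 15 rose and 10 fell. The rises included cell-surface and effector genes. OASL, an antiviral relative of OAS1, rose from 237, 243 and 256 to 496, 528 and 482 CPM, and IFI27 from 44.4, 50.3 and 52.7 to 122, 124 and 107 CPM. The virus entry inhibitor IFITM1 rose from 9.00, 13.0 and 13.9 to 29.6, 33.1 and 29.8 CPM, and BST2, tetherin, by 0.91. ISG15, the ubiquitin-like modifier, rose by 0.83, IFI6 by 0.81, RTP4 by 1.16 and IFIT1, which binds foreign RNA, by 0.54. In OASL, IFI27 and IFITM1 the lowest knockdown library stood well above the highest control. OASL, IFI27 and IFITM1 also rose in PARP1 knockdown over control, so these rises were not particular to TRIM28 knockdown.

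Among the interferon-stimulated genes that fell, the partners DTX3L and PARP9, a ubiquitin ligase and an ADP-ribosyltransferase that share a bidirectional start, changed by -1.13 ± 0.25 and -1.14 ± 0.27, and GBP1, an interferon-induced GTPase, by -0.84. With both trends removed PARP9 was no longer called (-0.64, adjusted p = 0.054). DTX3L and PARP9 overlap each other on opposite strands, so the counts of each may include reads of the other. The falls of HERC6, IFIT3, IFIT5, TRIM5 and GBP3 each ended without control replicate 1, TRIM28 knockdown replicate 2 or TRIM28 knockdown replicate 3, those but TRIM5 also without control replicate 2, and GBP3 also without TRIM28 knockdown replicate 1. On removal of control replicate 1, 4 falls were called. Single libraries also ended the rises of TAP1 (control replicate 1), MX2 (TRIM28 knockdown replicate 1), USP18 (control replicate 2 or TRIM28 knockdown replicate 1), EPSTI1 (TRIM28 knockdown replicate 1 or 2) and TRIM21 (replicate 1 or 2 of either group). Over the 6 fits the rises numbered 15 to 20.

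**Figure D3:**
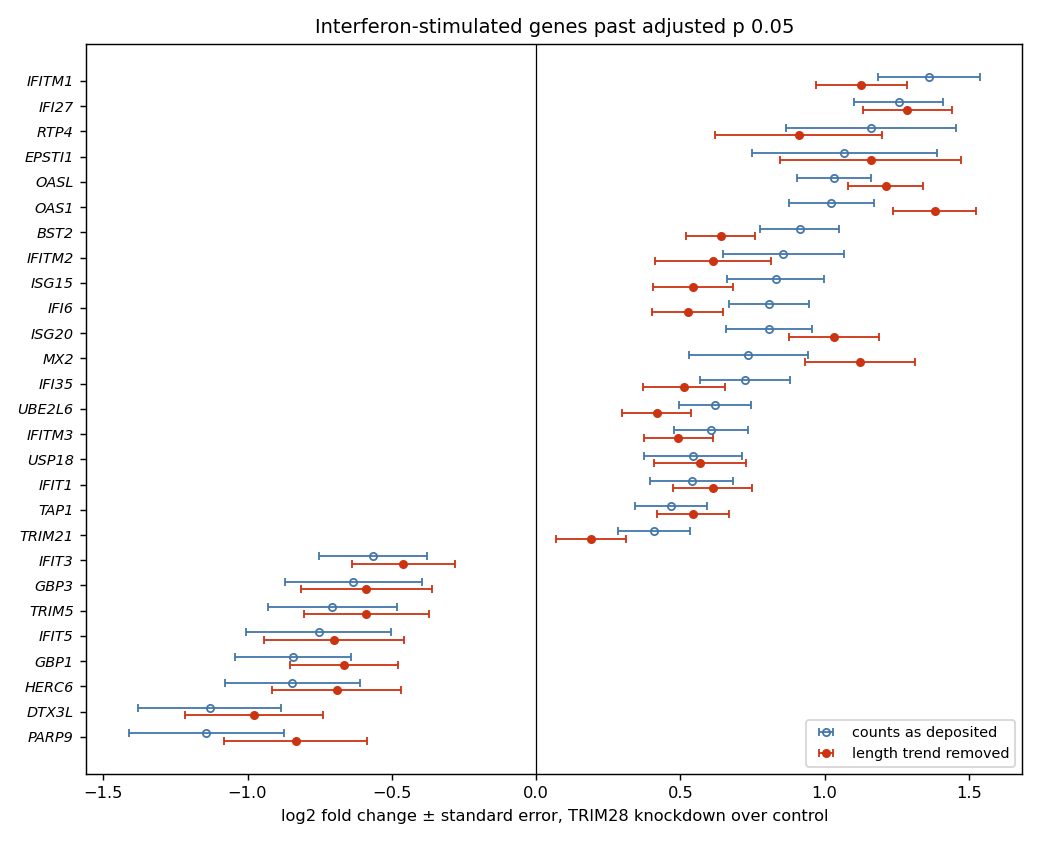
Log2 fold change with standard error (TRIM28 knockdown over control, n = 3 each) of interferon-stimulated genes past the threshold and reported here, as deposited (open blue) and with the length trend removed (red). IFITM1, IFI27 and RTP4 lie farthest right as deposited, OAS1 lies farthest right with length adjusted, at 1.38, and PARP9 and DTX3L lie to the left on both scales.

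Interferon-stimulated genes are switched on through a promoter element built from a pair of GAAA blocks with a short spacer. A motif of GAAA, any 2 bases and GAAA was searched on both strands in the 250 bases before each start in RefSeq's promoter table (GRCh38.p14), and overlapping matches were counted. It was found in 839 of 27305 promoters (3.07%), in 241 of 10118 promoters of tested genes (2.38%), in 42 of 1082 promoters of genes that rose (3.88%) and in 47 of 1954 of genes that fell (2.41%). Among interferon-stimulated genes with an entry, it was found in 11 of 15 that rose, 4 of 8 that fell and 14 of 24 that did not pass. OAS1, DTX3L and PARP9 had no match in this window, and OASL is not in the table. Stretches around the matches are given for 4 genes that rose and 2 that fell, to show that the same letters stand before both. Each runs 5 prime to 3 prime on the gene's strand, and capitals mark the motif or its reverse complement.
IFI27 (chr14:94110583-94110695, plus strand, rose): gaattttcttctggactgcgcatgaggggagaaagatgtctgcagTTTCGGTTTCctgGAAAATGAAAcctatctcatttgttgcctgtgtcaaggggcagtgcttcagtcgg
IFITM1 (chr11:313955-314039, plus strand, rose): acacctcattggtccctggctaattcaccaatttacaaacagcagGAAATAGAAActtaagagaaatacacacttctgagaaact
ISG20 (chr15:88638902-88639001, plus strand, rose): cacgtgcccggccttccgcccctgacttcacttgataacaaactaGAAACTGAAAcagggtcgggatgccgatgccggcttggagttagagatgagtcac
IFIT1 (chr10:89392462-89392574, plus strand, rose): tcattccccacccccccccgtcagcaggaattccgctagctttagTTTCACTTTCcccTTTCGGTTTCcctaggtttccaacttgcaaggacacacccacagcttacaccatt
GBP1 (chr1:89065281-89065380, minus strand, fell): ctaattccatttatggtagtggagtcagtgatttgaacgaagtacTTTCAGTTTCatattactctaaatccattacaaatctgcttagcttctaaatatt
IFIT5 (chr10:89414478-89414567, plus strand, fell): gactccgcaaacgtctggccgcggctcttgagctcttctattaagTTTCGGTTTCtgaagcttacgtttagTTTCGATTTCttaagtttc
In IFI27 the matches begin 108 and 95 bases before the start, in IFITM1 40, in ISG20 69 and in GBP1 127, so rises and falls both had the motif close to the start.

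The list of nucleic acid sensing, which also holds regulators such as ADAR and IFNB1 itself, gave no single direction. Of 17 tested, 3 rose (none without control replicate 2), 5 fell and 9 did not pass (median -0.03), and with length adjusted 2 and 2 passed (median 0.10). ADAR, the editing enzyme that hides self double-stranded RNA, fell from 169, 166 and 126 to 63.7, 67.4 and 70.6 CPM (-1.19 ± 0.14, or -0.83 length-adjusted, adjusted p = 0.000101). IFI16, a DNA sensor, and MAVS, the adaptor of the RNA sensors, changed by -0.88 and -0.70. MAVS was at -0.36 with length adjusted (adjusted p = 0.0645), and called lower with both trends removed (-0.41, adjusted p = 0.0168). IFNB1, interferon beta itself, was scarce, at 2.02, 1.16 and 1.80 CPM in control and 3.74, 3.35 and 2.77 CPM in knockdown. Its call (0.98 ± 0.31, adjusted p = 0.0221) ended without control replicate 2, TRIM28 knockdown replicate 1 or TRIM28 knockdown replicate 2. It also ended with length adjusted (0.69, adjusted p = 0.0923), while with both trends removed IFNB1 was called higher (0.88, adjusted p = 0.0397). The RNA sensor IFIH1 (MDA5) was at -0.03 and the DNA sensor CGAS at -0.16, neither past the threshold. STING1 (0.48) and the sensor DHX58 (0.95) rose, the latter's call ending without control replicate 2 and the former's on removal of 1 of 4 libraries, control replicate 1, control replicate 2 and TRIM28 knockdown replicates 2 and 3.

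Among 21 genes of HLA class I and peptide loading 11 rose and 4 fell (median 0.33), 2 and 3 without control replicate 1, and with length adjusted 8 and 2. With both trends removed 5 rose and 2 fell, with a median of 0.06 against 0.02 for all tested genes. The class I gene HLA-F rose from 11.6, 14.3 and 14.8 to 22.4, 22.4 and 20.3 CPM (0.67 ± 0.15). The falls were in the folding and trimming machinery: the chaperone CANX from 420, 395 and 249 to 153, 133 and 137 CPM (-1.33 ± 0.16), and the peptidase ERAP1 by -1.41 ± 0.25. HLA genes are highly similar, and reads may have been split among them. Of 30 NF-kB targets and cytokines 5 rose and 3 fell (median 0.11), with 3 and 1 without control replicate 1 and 5 and 4 with length adjusted. The chemokine CCL2 rose from 4.91, 3.87 and 4.70 to 10.3, 8.53 and 9.34 CPM and CCL5 from 140, 164 and 169 to 253, 298 and 221 CPM, while TNFAIP3, the inhibitor of NF-kB signalling also called A20, fell from 94.8, 73.3 and 59.8 to 39.9, 35.2 and 45.1 CPM. All 3 calls held with length adjusted.

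Rises outnumbered falls among ribosomal protein genes and nuclear respiratory chain genes. Of 84 cytosolic ribosomal protein genes 62 rose and none fell, with a median of 0.48, and 50 rose with length adjusted (median 0.39). Only 22 rose without control replicate 1, and 39 on library totals. Of 78 mitochondrial ribosomal protein genes 43 rose and 1 fell (median 0.41, 13 and 0 without control replicate 1), and 28 and 7 with length adjusted. Of 80 nuclear respiratory chain genes 51 rose and 1 fell (median 0.44, 7 and 1 without control replicate 1), and 27 and 1 with length adjusted. NDUFB8, an accessory subunit of complex I, rose from 60.6, 72.3 and 81.9 to 117, 117 and 124 CPM, and ATP5MG of ATP synthase by 0.64 ± 0.15 (0.91 length-adjusted). The 13 messenger RNAs of the mitochondrial genome did not pass (median 0.20), and MT-CO3 was nearest (0.33 ± 0.13, adjusted p = 0.0528).

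Rises also outnumbered falls among proteasome and glycolysis genes. Of 35 genes of the constitutive proteasome 17 rose and 6 fell (median 0.24, 7 and 3 without control replicate 1, and 11 and 4 with length adjusted). The core subunit PSMB7 rose from 583, 622 and 695 to 984, 1050 and 854 CPM, while PSMD1 of the regulatory particle fell from 55.8, 65.0 and 43.1 to 26.6, 24.4 and 23.1 CPM. Of 38 genes of glycolysis and the TCA cycle 14 rose and 4 fell (median 0.18, 2 and 3 without control replicate 1). TALDO1, transaldolase, rose by 0.53 ± 0.13, and HK2, hexokinase, changed by -0.99 ± 0.16. Of 54 tested histone genes 3 rose (none without control replicate 1), and their median of 0.21 became -0.05 with length adjusted.

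Falls gathered in RNA processing and protein folding. Of 58 hnRNP, SR and core splicing factor genes 20 fell and 6 rose (median -0.21, 14 and 3 without control replicate 1), and with length adjusted 16 and 4. HNRNPU fell from 423, 441 and 280 to 124, 114 and 114 CPM (-1.27 length-adjusted). SNRNP200, the helicase that unwinds U4 from U6 in the spliceosome, fell from 501, 494 and 400 to 173, 189 and 194 CPM. The Sm protein gene SNRPD2 rose by 0.64 ± 0.15. Of 52 DEAD and DEAH box helicases, enzymes that unwind RNA, 22 fell and 7 rose (median -0.37, 2 rose without control replicate 2), and with length adjusted 17 and 9. DHX9 held 64.2, 66.8 and 35.6 CPM in control and 19.1, 17.8 and 15.2 CPM in knockdown (-1.51 length-adjusted).

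Heat shock and cytosolic chaperone genes had 14 falls and 1 rise among 36, and 15 and 3 with length adjusted, with medians of -0.40 and -0.33. HSP90AB1, the constitutive cytosolic HSP90, fell from 2544, 2588 and 2026 to 1199, 1083 and 1116 CPM, and the mitochondrial chaperones HSPD1 and HSPA9 changed by -1.27 ± 0.15 and -1.17 ± 0.15. The rise, in CCT7 (0.40 ± 0.13), ended on removal of replicate 1 or 2 of either group. Of 29 endoplasmic reticulum chaperone and unfolded protein response genes 9 fell and none rose (median -0.31, 6 fell without control replicate 1, and 7 fell and 3 rose with length adjusted), with HSPA5 (BiP) down from 482, 469 and 407 to 259, 224 and 254 CPM. Of 23 aminoacyl tRNA synthetases 10 fell and 2 rose (median -0.08, none without control replicate 1), among the falls TARS1 from 127, 128 and 82.9 to 53.2, 46.6 and 45.9 CPM. Of 58 translation factors 13 rose and 11 fell (median 0.04, 3 and 9 without control replicate 1). EIF4B, which aids scanning of messenger RNA, changed by -1.26 ± 0.15, and EEF1D, of elongation factor 1, rose by 0.53 ± 0.14.

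Cell cycle genes fell more often than they rose. Of 53 replication and G1/S genes 18 fell and 4 rose (median -0.20, 7 fell without control replicate 2 and 1 rose without control replicate 1). Cyclin D1, CCND1, fell from 624, 610 and 453 to 266, 256 and 278 CPM (-1.08 ± 0.15, or -0.99 length-adjusted). MCM10, which loads polymerases at origins, fell from 14.5, 14.1 and 9.31 to 4.92, 4.86 and 4.64 CPM. Of 40 mitotic genes 12 fell and 4 rose (median -0.25, 5 and 0 without control replicate 1, and 9 and 2 with length adjusted), with the kinesin KIF4A at -1.19 ± 0.17 and the spindle factor TPX2 at -0.95 ± 0.15. Of 34 genes of DNA damage signalling and repair 9 fell and 1 rose (median -0.43, none rose without control replicate 1). With length adjusted 8 fell and 1 rose (median -0.19), and with both trends removed 6 and 1 (median -0.08). PARP1, the target of the other knockdown, fell from 178, 200 and 153 to 94.4, 93.3 and 93.6 CPM, -0.92 ± 0.14 as deposited and -0.51 length-adjusted (adjusted p = 0.00661). XRCC5 (Ku80), of end joining, changed by -0.80 and -0.67 on the same scales.

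In 28 p53 targets 3 rose and 3 fell, and with length adjusted 1 and 1 (median 0.11, none rose without control replicate 2 and 1 fell without control replicate 1). In 25 genes of the AP-1 and immediate early group 3 fell and none rose (median 0.07, 1 fell without control replicate 1 and 1 with length adjusted). In 32 AMPK and autophagy genes 5 rose and 7 fell (median -0.05, none and 3 without control replicate 1). Their order turned with length adjusted, to 6 rises and 4 falls (median 0.13), and to 7 and 3 with both trends removed. TRIM28 with MAGE proteins is known to promote breakdown of AMPK alpha 1, whose gene PRKAA1 fell from 24.9, 21.4 and 13.6 to 12.9, 9.25 and 9.34 CPM (-0.92 ± 0.20, or -0.71). The autophagy receptor gene SQSTM1 held 1093, 1052 and 1323 CPM in control and 1433, 1576 and 1643 CPM in knockdown, a call (0.42 ± 0.13) that ended on removal of control replicate 1, control replicate 2, TRIM28 knockdown replicate 2 or TRIM28 knockdown replicate 3.

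Matrix, adhesion and lineage genes fell together in part. Of 33 collagen, laminin and matrix glycoprotein genes 12 fell and none rose, with a median of -0.47 that became -0.14 with length adjusted, where 9 fell and 2 rose. Their median exon length was 9408 bases. Fibronectin, FN1, fell from 5136, 4789 and 3535 to 2000, 2062 and 2180 CPM (-1.11 ± 0.14, or -0.70), and the laminin chain LAMC1 by -1.18 and -0.89. Of 35 integrin and focal adhesion genes 14 fell and 1 rose (median -0.35, none rose without control replicate 1), and 10 and 4 with length adjusted. DIAPH1, a formin that nucleates actin, fell from 144, 142 and 98.6 to 44.2, 44.2 and 43.8 CPM and VCL, vinculin, from 284, 264 and 198 to 97.7, 90.7 and 104 CPM. LIMA1, an actin cross-linker, changed by -1.67 and, length-adjusted, -1.48.

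Of 16 tested genes of the renal epithelial lineage 7 fell and none rose, on each of the 3 scales and in each fit without 1 library. Their median was -0.25, -0.35 with length adjusted and -0.39 with both trends removed. They were DPP4 and MME, brush border peptidases, CDH6, HAVCR1, CA12, LHX1 and VCAM1. HAVCR1 (KIM-1), a tubule injury marker, fell from 30.1, 27.7 and 22 to 13.8, 13.0 and 11.0 CPM, and DPP4 from 45.4, 50.5 and 29 to 17.5, 17.8 and 14.6 CPM. PAX8, the lineage transcription factor, was not called. Of 30 HIF targets 8 fell and none rose (median -0.16), and 8 and 2 with length adjusted. P4HA1, a collagen prolyl hydroxylase, fell from 29.6, 26.3 and 21.1 to 14.6, 9.72 and 11.4 CPM, and EPAS1, which encodes HIF2-alpha, the HIF subunit active in this line, fell from a mean of 10.4 to 5.68 FPKM.

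Of 27 YAP and TAZ targets and Hippo genes 7 fell and none rose (median -0.27, 3 without control replicate 2), and of 23 receptor tyrosine kinases 5 fell and 1 rose (median -0.14, 2 and 0 without control replicate 1). With length adjusted 2 receptor genes fell and 2 rose (median 0.16), and with both trends removed 1 and 1. MET fell from 82.4, 78.3 and 48.1 to 35.6, 35.2 and 31 CPM and EGFR from 121, 110 and 77.8 to 54.4, 62.7 and 60.0 CPM. Among 25 keratins, cadherins and EMT factors 9 fell and 3 rose (median -0.43, 4 and 2 without control replicate 1). With length adjusted 7 fell and 3 rose (median -0.15), and with both trends removed 5 and 2 (median -0.25). N-cadherin, CDH2, fell from 148, 153 and 104 to 61.1, 64.6 and 68.0 CPM, while the epithelial keratin KRT18 rose from 392, 418 and 501 to 597, 667 and 672 CPM. Of 32 sterol and fatty acid genes 9 fell and 4 rose (none rose without control replicate 1) with a median of 0.00, and of 25 glutathione and NRF2 genes 6 fell and 9 rose with a median of 0.23 (1 rose without control replicate 2, and 3 rose and 6 fell with length adjusted). TXNRD1, thioredoxin reductase, fell from 212, 192 and 125 to 67.0, 61.3 and 61.1 CPM, while GPX1, glutathione peroxidase, rose by 0.64 ± 0.16.

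**Figure D4:**
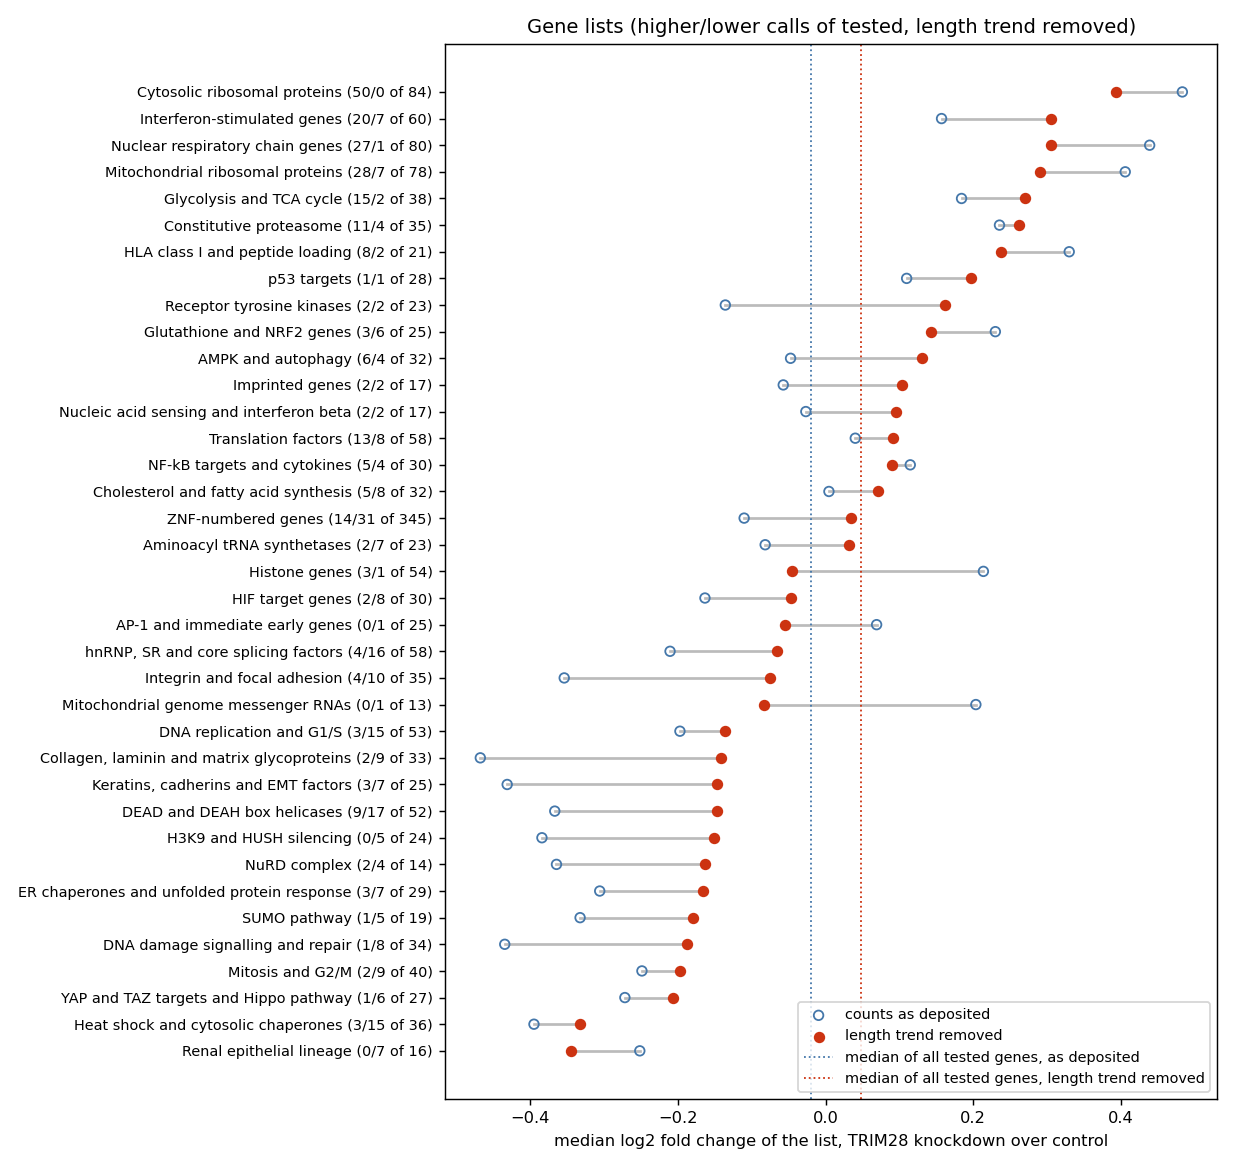
Median log2 fold change (TRIM28 knockdown over control) of each list with at least 10 tested genes, as deposited (open blue) and with the length trend removed (red), joined by a grey line, with dotted lines at the medians of all tested genes. Cytosolic ribosomal protein genes are at the top at 0.39 and renal epithelial genes at the bottom at -0.35 with length adjusted, and the matrix list moves from -0.47 to -0.14.

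The table's own pathway and gene ontology columns were ranked by the median length-adjusted change of terms with 15 to 300 tested genes, as a description without a test. Among 1045 biological processes, ribosomal small subunit assembly was highest (27 genes, median 0.37, 10 higher and none lower with length adjusted), and mRNA destabilization lowest (16 genes, -0.58, 8 lower and none higher). Also among the lowest were positive regulation of transforming growth factor beta receptor signaling (22 genes, -0.55) and cellular response to unfolded protein (15 genes, -0.53, 8 lower). Among 347 cellular components the highest was mitochondrial respiratory chain complex I (39 genes, 0.36) and heterochromatin was among the lowest (43 genes, -0.27, 12 lower and 2 higher). Among 383 molecular functions structural constituent of nuclear pore was lowest (18 genes, -0.47, 7 lower and 2 higher), and NADH dehydrogenase (ubiquinone) activity highest (16 genes, 0.46). Of 296 pathways the extremes were narrower, from mismatch repair (25 genes, -0.36) and adherens junction (70 genes, -0.32, 25 lower and 4 higher) to proteasome (49 genes, 0.26) and drug metabolism by cytochrome P450 (22 genes, 0.27).

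Genes without a symbol make up 20417 of the 61806 in the table, and 678 could be tested. Of these 39 rose (5.75%) and 9 fell (1.33%), with a median of 0.20, and with length adjusted 19 rose and 18 fell, with a median of 0.02. The 48 calls became 19, 23 and 77 on removal of control replicates 1, 2 and 3, and 24 on removal of TRIM28 knockdown replicate 2. By the table's descriptions, 9 of 40 unnamed ribosomal protein pseudogenes rose, 3 with length adjusted, and 9 of 151 transcripts antisense to a named gene rose and 2 fell. ENSG00000280614 (chromosome 21, 8393419 to 8394341, minus strand), described as similar to the noncoding RNA YAM1, held 201, 148 and 548 CPM in control and 1483, 1189 and 2078 CPM in knockdown, a 5.30-fold rise of means in which control replicate 3 was the highest control. Its fold change of 2.41 became 3.21 without that library. In PARP1 knockdown ENSG00000280614 held 1370, 18460 and 3228 CPM, a wide spread within that group. ENSG00000287539 (chromosome 17, 78845345 to 78846686, plus strand) rose from 1.20, 0.968 and 1.34 to 3.74, 4.62 and 2.83 CPM. ENSG00000288851 (chromosome 6, 24720322 to 24720639, plus strand) held 3.08, 2.23 and 1.48 CPM in control and 0.934, 0.398 and 1.02 CPM in knockdown, and its call ended without control replicate 1 or TRIM28 knockdown replicate 2.

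Few genes set TRIM28 knockdown apart from both other groups. In PARP1 knockdown over control, SETDB1 (-1.66), MORC2 (-2.07), CHD3 (-1.93) and NDUFB8 (1.17) changed in the same direction as in TRIM28 knockdown. As deposited, each went farther in PARP1 knockdown. With length adjusted, the difference between knockdowns still passed for SETDB1 and CHD3, but not for MORC2 (adjusted p = 0.0557) or NDUFB8 (adjusted p = 0.24). MCM3AP (-1.34) changed in the same direction but less far. U2AF1 (1.30) did so too, with a difference between knockdowns that did not pass (0.15, adjusted p = 0.665). The interferon-stimulated genes IFI27 (1.75), IFITM1 (1.675), OASL (1.5), ISG20 (1.46) and OAS1 (1.27) also rose in PARP1 knockdown over control. Each of these estimates exceeded that in TRIM28 knockdown. The difference passed for IFI27, OASL and ISG20 on both scales, and for OAS1 only with length adjusted. For IFITM1 it passed on neither. Why both knockdowns shared these rises was not tested. Per doubling of exon length, level changed by -0.0968, -0.152 and -0.167 in the PARP1 knockdown libraries. Against PARP1 knockdown 3407 genes passed (25.1%), and 1654, 2254, 2149 and 1712 on removal of TRIM28 knockdown replicate 1 or 3 or PARP1 knockdown replicate 2 or 3. Of all tested genes, 10 were higher than both control and PARP1 knockdown (0.0737%) and 14 lower than both (0.103%), with 11 (0.0811%) and 16 (0.118%) after length adjustment. CFL1 (chromosome 11, 65823022 to 65862026), cofilin, which severs actin filaments, held 1338, 1390 and 1674 CPM in control, 1945, 2001 and 2061 in TRIM28 knockdown and 538, 490 and 556 in PARP1 knockdown. TRIM28 knockdown was thus the highest group and PARP1 knockdown the lowest, and TRIM28 knockdown exceeded PARP1 knockdown by 1.92 ± 0.13 (adjusted p = 1.15e-10). The rise over control (0.45 ± 0.13, adjusted p = 0.0108) ended without control replicate 1 or 2. LIMK1, the kinase that inactivates cofilin, showed the opposite order, with 181, 191 and 213 CPM in control, 84.0, 104 and 116 in TRIM28 knockdown and 308, 253 and 289 in PARP1 knockdown. It fell against control by -0.95 ± 0.14 (adjusted p = 2.32e-05) and stood -1.49 ± 0.14 below PARP1 knockdown.

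TSPAN4, a tetraspanin of migrasomes, likewise was lowest in TRIM28 knockdown, at 61.1, 59.3 and 75.4 CPM in control, 40.9, 43.3 and 43.1 in TRIM28 knockdown and 118, 140 and 176 in PARP1 knockdown. Other genes higher than both groups were the Arp2/3 subunit ARPC1A, the GTPase RHOB, the mevalonate pathway enzyme MVD and the Mediator subunit MED26. Each of these rises over control ended without control replicate 1 or 2 and without at least 1 TRIM28 knockdown replicate, and those of ARPC1A and RHOB also with length adjusted (0.20 and 0.26). ARPC1A shares its strand and bounds in part with another tested gene. CCDC74A, lower than both groups, lost its call against control without TRIM28 knockdown replicate 1, and CGB8 without any single one of the 6.

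**Figure D5:**
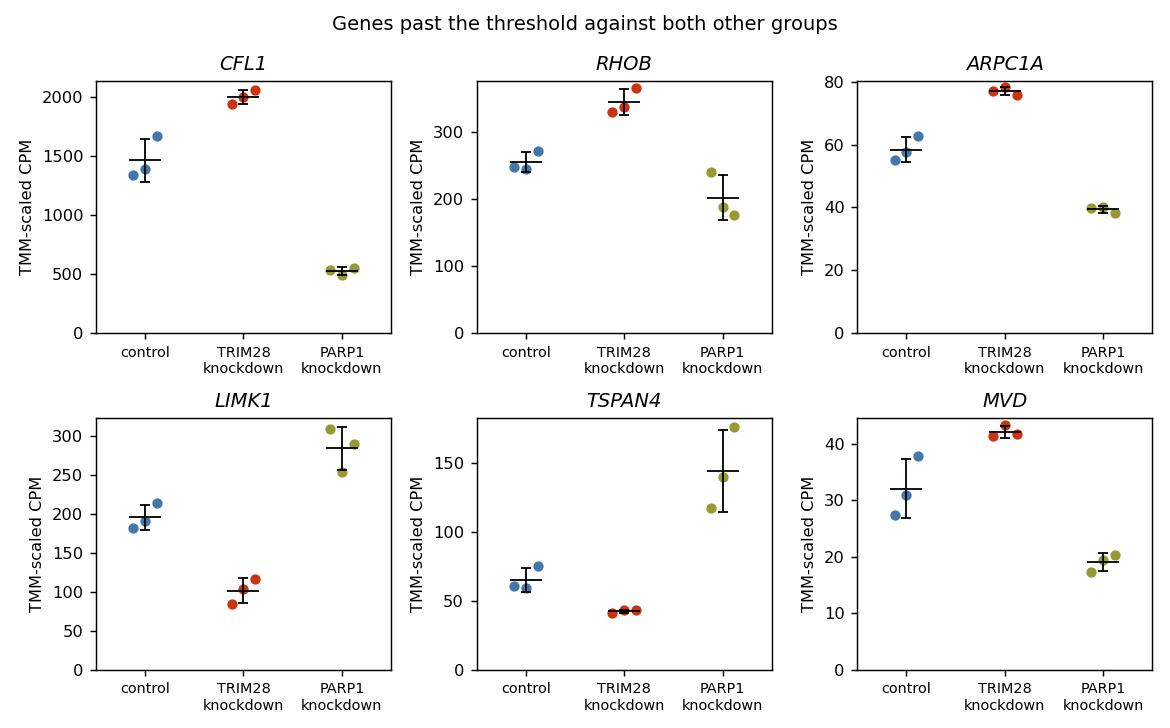
TMM-scaled CPM of 6 genes past the threshold against both other groups, with 1 point per library and the mean with SD (n = 3 per group). CFL1, RHOB, ARPC1A and MVD are highest in TRIM28 knockdown and lowest in PARP1 knockdown, and LIMK1 and TSPAN4 are lowest in TRIM28 knockdown and highest in PARP1 knockdown.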

How the data were processed

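Polyadenylated RNA was sequenced from 786-O cells in 9 libraries, 3 per group, with a directional kit per the labels' protocols. The deposited table holds raw counts and FPKM values side by side, per the file headers. The submitters' processing notes name Trim Galore 0.6.6, STAR 2.7.9a, featureCounts 2.0.1 and GRCh38. Neither the annotation release nor the strand setting is given in the sources used here. Library totals were 12840619 to 20224374 in the 6 libraries compared.

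The deposited counts were tested with edgeR 4.0.16 (TMM, its filter on low counts, quasi-likelihood test, two-sided, Benjamini-Hochberg at 0.05) in R 4.3.3, with 9 libraries in 1 fit, 6 residual degrees of freedom and a biological coefficient of variation of 0.149. Length and GC trends were removed as offsets from a lowess fit per library (span 0.3), with GC from GENCODE for 98.7% of genes. A simulation of this comparison with 200 changed genes over 13562 gave 10 false calls, and 146 with a length trend added, which its removal brought to 10. Of the 1.5-fold changes 29.4% were recovered without a trend, and 22.1% after a trend was added and removed. It gave all knockdown libraries the same slope and had no GC trend and few changed genes. The data differ in each of these, so it does not give the rate of false calls here. Between replicates of a group, chi-square over its degrees of freedom was at least 5.01, above sampling noise, so no libraries were merged; this does not show separate cultures.

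Members and lists were chosen with earlier results of these data known. Named genes are the targets, the 10 largest length-adjusted rises and falls with a symbol, a mean FPKM of at least 1, no overlap of libraries and both calls, up to 5 per direction that differed from both groups, and up to 3 per list and direction with the smallest adjusted p. Other members of the interferon, silencing, imprinted, NuRD and renal lists were named after their values were seen. Alternatives were DESeq2 1.42.0, its size factors, library totals, limma 3.58.1 on log2(FPKM + 1) and log2(FPKM + 0.1), other filters, a fit of 2 groups, removal of single libraries and a replicate block. On the limma scales fold changes understate those of low genes. Same-numbered libraries did not deviate together throughout (r = 0.141, 0.0113 and 0.106), so the main fit has no block. Some items are not reported here, though list counts include them.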

Additional observations from a re-analysis of the deposited data

How the results depend on the processing

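The count of changed genes against control stayed within 1.5 times of 3768 under the other scalings, tools, filters and trend removals, from 2518 at a mean FPKM of at least 1 to 5083 with the 2 groups alone, and ran from 1537 to 4909 when each library was left out. The share of calls that were higher was 37% in the main fit, 13.7% on library totals and 48.4% with length removed. Changes of at least 2-fold numbered 811, against 1324 on library totals, 203 with limma on log2(FPKM + 1), 395 with length removed, 266 with length and GC removed, and 384 to 1259 without single libraries. Calls without a symbol numbered 48, against 31 on library totals, 21 at a mean FPKM of at least 1, 75 with the 2 groups alone, and 19 to 77 without single libraries. Genes between the knockdowns numbered 3407, against 2264 with limma on log2(FPKM + 1), 1983 with length and GC removed, and 1654 to 4714 without single libraries. With a replicate block, 4085 genes were called against control and 3519 with length removed as well, an alternative chosen after seeing the data; same-numbered libraries correlated best with each other in replicates 1 and 3, and TRIM28 knockdown replicate 2 correlated better with control replicate 3 (r = 0.0604) than with its own number (0.0113). PHLDA2 (-0.0655), GADD45B (-0.0388), PMVK (-0.01) and KRT19 (-0.0148) turned sign with length and GC removed, and the cause was not tested. Of 196 named genes, 34 called as deposited were not called with length removed, and 50 with length and GC removed, those 4 included. Low counts limit the 2713 tested genes of lowest level, at up to 2.03 CPM, where 56 rose and 55 fell.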

Other observations

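Calls also followed chromosome. On chromosome 19, 159 of 870 tested genes rose and 48 fell, and with length removed 165 rose and 31 fell, with a median GC content of 58.7%. On chromosome 4, at 42.8% GC, 23 of 466 rose and 121 fell, and with length removed 32 and 85. With length and GC removed, these counts were 78 and 43 on chromosome 19 and 41 and 64 on chromosome 4. Chromosome 22 had 69 rises and 19 falls of 346 with length removed, and 47 and 25 with both removed.

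Calls followed level as well. Among the 2713 tested genes above 62.6 CPM 748 rose and 422 fell, while among the 2712 from 6.96 to 20.6 CPM 156 rose and 816 fell.

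Genes near 0 counts in 1 group were examined separately. Of 42855 genes with at most 3 counts over the 3 control libraries, none reached 30 counts over the 3 knockdown libraries, and the highest sum was 25. The tetraspanin gene CD9 had 2 counts in control and 18 in knockdown, 16 of them in replicate 1. ADGRF5, an adhesion receptor gene, had 0 and 16, all in replicate 1. In the other direction 5 genes with at most 3 counts in knockdown had 30 or more in control, among them ZNF132 (12, 17 and 8 counts in control, 0, 2 and 1 in knockdown, and 0, 0 and 3 in PARP1 knockdown) and TDO2, tryptophan dioxygenase (15, 10 and 5 in control and 2, 0 and 0 in knockdown). ZNF132 lies on chromosome 19 at 58432814 to 58440153. These counts were too low for the filter, and these genes were not tested.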
